A study of Homo sapiens with 16 samples.

Results

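The KMT2D-guide transition is the comparison of sgKMT2D-Mes with sgKMT2D-Epi, the mesenchymal and the epithelial cells obtained with a guide against KMT2D. Its members were chosen by their group labels: 2 libraries of each group, 4 of the 16 RNA-seq libraries in the series, with every gene in their count tables considered. All came from HMLER, a human mammary epithelial line that was immortalised and transformed with introduced genes, among them TERT, the catalytic part of telomerase, and an oncogenic HRAS. Both groups carry the C1 prefix, C1 being a wild type clone that the design describes as stably epithelial, and both have the genotype label KMT2D-KO. The design places sgKMT2D-Epi among the plastic epithelial states and sgKMT2D-Mes among the mesenchymal ones. The same step from an epithelial to a mesenchymal state was sampled in sgEED cells, which are labelled EED-KO and also carry the C1 prefix, and in C2, another wild type clone, with 2 libraries in each of these 4 groups. C1 itself and C1 with a control guide (sgControl), both wild type, gave the remaining 4 libraries. All groups grew in the same mammary medium with insulin, EGF and hydrocortisone, and RNA was taken from cultured or sorted cells. The labels do not say whether sgKMT2D-Epi and sgKMT2D-Mes descend from 1 clone, and the deposited library names are unlike between the states in 1 part, which might name a clone. Differences between states and differences between clones therefore cannot be told apart here. No label says that the 2 libraries of a group came from separate cultures. The p-values rest on the spread between libraries of the same group, estimated over all 16 libraries and not the 4 alone. That spread may be technical.

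The epithelial-mesenchymal transition is a programme in which cells give up junctions, polarity and keratins and take on a spindle shape, a fibroblast-like matrix and the ability to move. Transcription factors of the ZEB, SNAI, TWIST and PRRX families drive it, and the GRHL, OVOL and ESRP proteins together with microRNAs of the miR-200 family hold it back. KMT2D, also called MLL4, is a histone methyltransferase of the COMPASS family that places monomethyl marks on histone H3 lysine 4 at enhancers, where cell-type genes are switched on during differentiation. In mammary cells the transition is studied because cells along it differ in invasion and in tumour-forming ability.

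The 4 libraries held between 23717832 and 28058943 assigned counts, and levels are given as CPM, counts relative to library totals scaled by the trimmed mean of M values (TMM). Log2 counts of the 2 replicates correlated at 0.994 in each group. The targeted gene did not check the labels, because a guide can disable a protein without lowering its transcript: KMT2D stood at 124 and 127 CPM in the sgKMT2D-Epi libraries and 86.6 and 76.8 in the sgKMT2D-Mes libraries, beside 86.1 ± 8.33 in C1 and 80.4 ± 13.4 in sgControl (mean ± SD, n = 2). The difference between the states, log2 -0.62, passed the test (edgeR quasi-likelihood, adjusted p = 0.0092) but not without sgKMT2D-Mes replicate 2 (adjusted p = 0.06). Defining markers fitted the labelled states. The summed level of 7 epithelial markers was 5498 and 5339 CPM in sgKMT2D-Epi against 109.6 and 102 in sgKMT2D-Mes, although 1 of them, CLDN4, was under 1 CPM in all 4 libraries. The 6 mesenchymal markers summed to 1609 and 1606 CPM against 14902 and 14823. Most of each larger sum came from 1 gene. KRT5 gave 3772 and 3679 CPM in sgKMT2D-Epi, and COL3A1 gave 10357.5 and 10473 in sgKMT2D-Mes. Of 5 leukocyte markers, 5 were under 1 CPM in all 4 libraries, with CD3E at 0, and of the 4 defining muscle markers 4 were at 0. The longer lists for both lineages held expressed genes. Of 5 measured muscle genes 2 rose, among them DMD, which encodes dystrophin (27.6 and 25.4 to 89.2 and 102 CPM), and 1, the myosin gene MYH3, fell (3.40 and 3.35 to 2.05 and 1.66). Of 4 measured leukocyte genes 1 rose and 1, the actin-binding CORO1A, fell (5.71 and 6.77 to 2.55 and 2.19), a call lost without sgKMT2D-Mes replicate 2 (adjusted p = 0.052). LAPTM5 (5.14 and 6.33 against 2.76 and 2.84) did not pass (adjusted p = 0.1), but did in a fit of the 4 sgKMT2D libraries alone (adjusted p = 3.7e-05). In bulk RNA, fewer cells of a type and less RNA per cell cannot be told apart.

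Slightly over 1 gene in 2 moved between the states. Of 18285 genes tested, 4903 rose in sgKMT2D-Mes and 4391 fell at an adjusted p under 0.05, which is 26.8% and 24% of the genes tested. Against a threshold of a 2-fold change, 2064 rose and 1416 fell, 11.3% and 7.74%. The median gene had a log2 change of 0.02. All statements below that a gene rose or fell refer to the quasi-likelihood test of edgeR, adjusted by the Benjamini-Hochberg method over these 18285 genes, and the shares above are the background against which counts of gene lists are to be read. Some genes moved between none and a sizeable level. A set of 10 protein-coding genes had 0 counts in both sgKMT2D-Epi libraries and at least 5 CPM in both sgKMT2D-Mes libraries, and 1, FAM110C, did the reverse. Against a floor of 3 counts per library, the phosphodiesterase gene PDE7B was at least 301-fold higher in sgKMT2D-Mes and the calcineurin regulator RCAN2 at least 276-fold. FAM110C was at least 56.1-fold lower. In CPM itself the largest rises called were those of FN1, COL3A1, COL1A2, MALAT1, VIM, CADM3, SPARC and IGFBP2, and the 8 largest falls included those of KRT5, THBS1, HSP90AA1, KRT17, KRT6A, MT-ND2 and MT-ND1. The calls of MALAT1 and MT-ND2 were lost whichever of the 4 libraries was left out, with adjusted p between 0.061 and 0.17, and that of MT-ND1 without any but sgKMT2D-Epi replicate 2 (0.086 to 0.13). Matrix genes thus supplied 4 of the 8 largest rises and keratins 3 of the 8 largest falls.

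**Figure D1:**
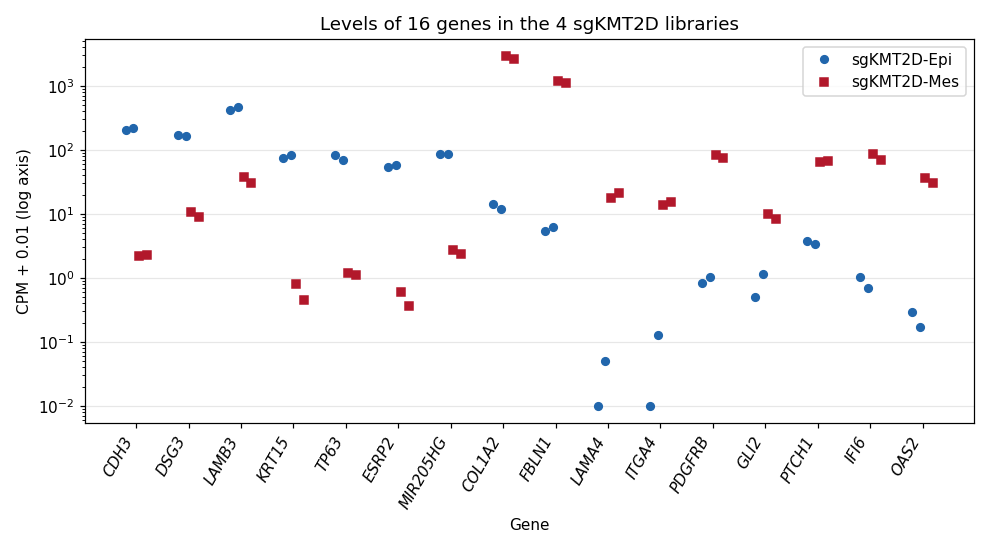
CPM of 16 genes in the 4 libraries on a log axis (0.01 CPM added so that 0 can be drawn), with sgKMT2D-Epi as circles and sgKMT2D-Mes as squares. For each gene drawn the 2 libraries of a state lie together and apart from those of the other state. Epithelial genes fall and matrix, interferon and Hedgehog genes rise. The genes were chosen with earlier results of these data known, so the gap is a description.

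Most genes of epithelial adhesion fell. Of 16 measured genes of adherens junctions and the epithelial surface, 12 fell and 1 rose. P-cadherin, CDH3, stood at 209 and 223 CPM in the epithelial libraries and at 2.18 and 2.28 in the mesenchymal ones. The protease gene ST14, which processes the epithelial surface, went from 55.2 and 60.7 to 0.586 and 0.263, and AP1M2, which sorts proteins to the basolateral membrane, from 25.4 and 25.3 to 0 and 0.0438. These genes were named as called members with large changes, so the gap between their states follows from that choice. The mucin MUC1 moved the other way, from 2.55 and 3.03 to 15.6 and 14.1 CPM, and the surface gene NECTIN4 (7.09 and 8.13 against 8.78 and 9.50) did not pass the test.

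Genes of tight junctions and polarity fell too. Of 16 measured claudin and tight junction genes 12 fell, 0 rose and 4 did not pass. CLDN1 fell from 353 and 316 to 25.9 and 24.9 CPM, the tricellular junction gene MARVELD2 from 34.8 and 32.7 to 5.98 and 5.65, and the polarity gene PARD6B from 11.7 and 8.72 to 0.293 and 0.131. The scaffold gene TJP1 (192 and 175 against 234 and 221), which also serves other cell contacts, did not pass. Of the desmosomes, button-like contacts anchored to keratin, 9 of 11 genes fell: DSG3 fell from 168 and 166 to 10.6 and 8.93 CPM and DSP from 1048 and 986 to 49.6 and 48.6. PKP2 (119 and 115 against 135 and 136) and PPL (17.3 and 20.04 against 17.6 and 18.5) did not pass. Of the hemidesmosomes, which fix basal cells to the basement membrane, 6 of 9 genes fell, among them the collagen COL17A1 (418 and 419 to 1.76 and 1.05 CPM), the integrin chains ITGA6 (900.1 and 796 to 52 and 52.8) and ITGB4 (505 and 569.6 to 119 and 108), and the laminin chains LAMA3 (1053 and 999.8 to 24.4 and 23.4) and LAMB3 (428 and 473 to 37.8 and 30.8). DST, PLEC and CD151, whose products are found in other structures too, did not pass.

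Keratins took a smaller share of all counts, 1.08% and 1.15% in sgKMT2D-Epi and 0.0510% and 0.0464% in sgKMT2D-Mes. Among basal and stress keratins 8 of 9 measured genes fell, with a median log2 change of -6.79. KRT17 kept 137 and 128 CPM after 2547 and 2753, KRT15 fell from 74.9 and 83.8 to 0.795 and 0.438, and KRT81 from 40.8 and 43.4 to 0.293 and 0.219. Among simple keratins 4 of 5 fell, including KRT7 (1380.5 and 1429 to 298 and 253) and KRT18 (266 and 283 to 18.6 and 17.3). Genes of the cornified envelope and epithelial serine protease system gave 16 falls and 0 rises among 30 measured. SPINT1 and SPINT2, membrane inhibitors of serine proteases, fell from 69 and 73.3 to 2.30 and 2.14 CPM and from 86.9 and 100.2 to 3.35 and 2.58, and S100A14 went from 239.9 and 223 to 1.88 and 1.31 CPM.

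Most regulators of the epithelial state fell too. Of 20 measured, 14 fell, 2 rose and 4 did not pass. The basal lineage factor TP63 fell from 84.3 and 70.1 to 1.17 and 1.09 CPM, the splicing regulator ESRP2 from 53.9 and 59 to 0.586 and 0.350, OVOL2, a repressor of ZEB1, from 4.04 and 4.18 to 0.0837 and 0, and TFAP2C from 34.2 and 29.3 to 0.544 and 0.438. GATA3, a luminal mammary factor, rose from 11.4 and 11 to 68.8 and 59 CPM, with an SE of 0.21 on its log2 change of 2.52. FOXA1, the other luminal factor on the list, rose from 0.354 and 0.279 to 1.67 and 2.01.

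ZEB and SNAI proteins are known to bind the E-box letters CACCTG, which read CAGGTG on the other strand. RefSeq promoters of 300 bases, 250 before and 50 after the start (GRCh38.p14), were found for 39 of the 63 measured regulators and junction genes, and 16 of these 39 (41%) held the motif on either strand. Of 12269 promoters of tested genes 18.6% held it. Among the 28 members with a promoter that fell the share was 39.3%. The windows below show the motif nearest to the start in 5 genes that fell, in capitals with the flanks in lower case, and the copies shown lie before the start.
AP1M2 (chr19:10587313-10587339, minus strand): CACCTGggctctCACCTGggcgcaggc
DSP (chr6:7541574-7541603, plus strand): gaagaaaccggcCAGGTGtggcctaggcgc
CRB3 (chr19:6464199-6464228, plus strand): agtgcgctctccCAGGTGagtgactaaact
CDS1 (chr4:84583088-84583117, plus strand): cgtggagacgcgCACCTGgcaaccggaggc
PATJ (chr1:61742438-61742467, plus strand): gggagggcctgcCAGGTGaggcgcggtcac
CRB3, a polarity protein of the apical membrane, had 5 such motifs in its promoter and fell from 2.59 and 2.95 to 0.0418 and 0.0438 CPM, and PATJ, its binding partner in the same complex, fell from 52.2 and 54.3 to 8.45 and 8.84. The promoters of MUC1 and FOXA1, which rose, and of NECTIN4 and TJP1, which did not pass, held the motif too. These matches describe letters and no binding.

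Of the factors that drive the transition 9 of 19 measured rose and 3 fell. Besides PRRX1, ZEB1 and TWIST1, the rises included those of ZEB2 (8.72 and 8.37 to 77.2 and 76.6 CPM), the homeobox gene SIX2 (11.7 and 13 to 128 and 123), FOXC2 (25.3 and 21 to 63.9 and 69.9), TWIST2 (6.27 and 6.09 to 17.8 and 15) and SOX9. SNAI2 stood at 237 and 204 in the epithelial libraries and 151 and 161 in the mesenchymal ones and did not pass (log2 -0.50, adjusted p = 0.16). SNAI1, at 0.177 and 0.478 against 0.0837 and 0 CPM, fell, a call lost without sgKMT2D-Epi replicate 2 or sgKMT2D-Mes replicate 2 (adjusted p = 0.12 and 0.074). Without sgKMT2D-Epi replicate 2 that of SOX9 was lost too (adjusted p = 0.11). The ZEB and TWIST genes rose and the SNAI genes did not.

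Of 13 measured host transcripts of microRNAs 5 rose (3 without sgKMT2D-Epi replicate 2) and 4 fell. The counts measure the long host RNA, not the mature microRNA. MIR200CHG, which holds miR-200c and miR-141, stood at 0.603 and 0.438 CPM in sgKMT2D-Epi and was at 0 in both sgKMT2D-Mes libraries, at least 4.05-fold lower. MIR205HG, the host of miR-205, fell from 87.5 and 87.6 to 2.68 and 2.32. MIR17HG, the host of a cluster of growth-promoting microRNAs, fell from 5.49 and 3.51 to 0.376 and 0.438. MIR99AHG rose from 0.177 and 0.0797 to 1.17 and 1.40. The mature sequences are from RefSeq (GRCh38.p14), with the seed, bases 2 to 8, in capitals, because the seed decides which transcripts a microRNA pairs with.
miR-200c-3p, in MIR200CHG: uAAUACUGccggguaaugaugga
miR-141-3p, in MIR200CHG: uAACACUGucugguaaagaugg
miR-205-5p, in MIR205HG: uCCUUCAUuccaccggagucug
miR-17-5p, in MIR17HG: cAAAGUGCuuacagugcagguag
miR-20a-5p, in MIR17HG: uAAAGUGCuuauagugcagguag
miR-19a-3p, in MIR17HG: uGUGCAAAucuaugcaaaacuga
miR-19b-3p, in MIR17HG: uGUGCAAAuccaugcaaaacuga
miR-99a-5p, in MIR99AHG: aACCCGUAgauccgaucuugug
let-7c-5p, in MIR99AHG: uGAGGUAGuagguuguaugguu
miR-17-5p and miR-20a-5p share 1 seed and miR-19a-3p and miR-19b-3p another, whereas the seeds of miR-200c-3p and miR-141-3p differ. Members of the miR-200 family are known to repress ZEB1 and ZEB2, whose transcripts rose.

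Matrix genes rose widely. FN1 alone took 2.15% and 2.17% of all counts in sgKMT2D-Epi and 13.2% and 12.6% in sgKMT2D-Mes, and collagens together 0.234% and 0.252% against 1.94% and 1.95%. Of 9 measured fibrillar collagens 6 rose and 2 fell. COL1A2 went from 14.1 and 11.9 to 2899.9 and 2659.7 CPM and COL5A2 from 83.6 and 83.4 to 983 and 969.8. COL1A1, which pairs with COL1A2 in type I collagen, rose less, from 17.8 and 20.3 to 102 and 93.3. COL5A1, the usual partner of COL5A2, fell from 2.91 and 2.95 to 0.711 and 0.613. Of 24 other collagens 16 rose, among them the 3 type VI chains (COL6A3 from 16.4 and 18.5 to 422 and 410.1) and COL4A1 and COL4A2 of basement membranes, while COL16A1 fell (72.2 and 82.8 to 19 and 15.8).

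Proteins that finish and bind collagen rose in part. Of 21 measured processing and crosslinking genes 14 rose and 3 fell. The procollagen protease ADAMTS14 went from 0.284 and 0.319 to 19.95 and 20.4 CPM and the lysyl oxidase LOXL2 from 24.3 and 27.4 to 124 and 113. LOX itself (26.1 and 22.6 against 43.4 and 45.8) did not pass, and TGM2, a crosslinking transglutaminase, fell from 203 and 219 to 81.5 and 64.7. Of 17 measured proteoglycans 10 rose and 1 fell. Of the small leucine-rich ones BGN rose from 3.58 and 3.62 to 892 and 799, DCN from 16.7 and 14.9 to 773 and 758 and LUM from 0.142 and 0.239 to 17.4 and 16.2. VCAN (209.8 and 209 against 153 and 152), a large proteoglycan, did not pass.

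Laminins and integrins moved in both directions. Whereas LAMA3 and LAMB3 fell, LAMA4 rose from 0 and 0.0398 to 18 and 21.5 CPM, LAMA2 from 1.95 and 2.23 to 217 and 218, LAMA1 from 15.1 and 14.4 to 77.1 and 79.9 and LAMB2 from 56.1 and 63.6 to 432 and 384. The basement membrane linker NID1 rose from 0.0354 and 0.0797 to 26.9 and 28.8. Of 16 measured matrix receptors 10 rose and 4 fell (2 without replicate 1 of either state). ITGA4, a fibronectin receptor chain, went from 0 and 0.120 to 13.6 and 15.5, the laminin receptor chain ITGA7 from 0.142 and 0.518 to 15.8 and 14.2 and the collagen receptor DDR2 from 1.88 and 0.996 to 25 and 24.1. ITGB6, found on epithelia, fell from 99.1 and 92.3 to 1.34 and 0.963, and the epithelial collagen receptor DDR1 from 68.3 and 82.7 to 41.9 and 40.4. Matrix glycoproteins overall gave 26 rises and 5 falls among 41. The fibulin FBLN1 rose from 5.39 and 6.33 to 1208 and 1099.7, fibrillin FBN1 from 41.8 and 37.2 to 1020.4 and 951 and IGFBP3 from 2.02 and 1.95 to 402 and 419.9. TNC, a matricellular protein of wounds, fell from 39.2 and 41.4 to 15.2 and 15.1. POSTN stood at 25.4 and 21.9 against 16.2 and 18.5 CPM and did not pass. MMP2, a gelatinase, rose from 3.01 and 3.86 to 127 and 114 and the inhibitor TIMP1 from 73.2 and 82.4 to 729 and 720.4, while PLAU fell from 136 and 146 to 62 and 60.6.

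Growth factor genes moved in both directions. All 18 measured genes of the PDGF and FGF list changed, 9 in each direction. PDGFRB rose from 0.815 and 1.04 to 84.2 and 74.1 CPM and its ligand PDGFD from 0.142 and 0.199 to 31.7 and 34.1, whereas PDGFB fell from 2.76 and 2.79 to 0.251 and 0.263. FGFR1 rose from 29.9 and 31.1 to 182 and 172 as FGFR2, the epithelial receptor, fell from 14 and 13.8 to 0.167 and 0.131. FGFBP1, a carrier that frees FGFs from matrix, went from 529 and 559.6 to 2.18 and 2.14. HGF was at 0 in both epithelial libraries and at 2.34 and 2.54 in the mesenchymal ones, while its receptor MET fell from 246 and 231 to 69.4 and 70.6. In the EGFR family the receptor EGFR fell from 800.1 and 785 to 156 and 152 and its ligands AREG from 417 and 387 to 31.3 and 33.4 and TGFA from 59.2 and 61.5 to 0.335 and 0.306. ERBB2 rose from 40.02 and 45.1 to 105 and 93.6. Feedback genes of the MAPK pathway were split, with 8 rises and 6 falls among 19. DUSP6 and SPRY4 did not pass.

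In the TGF-beta and BMP system 8 of 17 ligands rose and 4 fell, 6 of 16 receptors and binders rose and 1 fell, and 3 of 10 antagonists rose and 3 fell. GDF6 rose from 0.0709 and 0.0797 to 7.03 and 7.22 CPM and TGFB1 from 40.1 and 41.3 to 125 and 109.8, while INHBA fell from 341 and 277 to 43.6 and 47.4 and BMP2 from 7.23 and 6.97 to 0.502 and 0.657. Of the latent TGF-beta binding proteins LTBP1 rose from 16.9 and 16.7 to 271 and 271 and LTBP3 from 2.55 and 2.11 to 27.1 and 24.6. The signalling receptors TGFBR1 and BMPR1A did not pass. GREM1, a BMP antagonist of fibroblasts, rose from 0.780 and 0.876 to 104 and 93.5, and FST, an activin antagonist, fell from 24.2 and 19.4 to 2.68 and 1.97. Of 20 transducers and targets 4 rose and 7 fell.

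Among 11 measured Wnt ligands 2 rose and 6 fell, and among 23 Wnt receptors and antagonists 7 rose and 8 fell. Of the Wnt ligands WNT5B rose (7.05 and 6.85 to 67.3 and 57.7 CPM), and WNT7B fell from 15.2 and 18.4 to 0.209 and 0.0438 and WNT5A from 2.66 and 2.15 to 0.125 and 0.131. The receptor gene ROR1 rose from 14.9 and 12.3 to 203 and 198, and SFRP1, an antagonist, fell from 21.4 and 18.4 to 0.669 and 0.744. AXIN2, a feedback target of the canonical pathway, rose from 0.213 and 0.199 to 3.05 and 3.06, while another target, RNF43, fell from 4.25 and 4.54 to 0 in both mesenchymal libraries. In the Notch list 8 of 18 rose and 4 fell: the receptor NOTCH3 went from 1.81 and 3.03 to 55.2 and 49.9 and the targets HEY1 from 0.248 and 0.239 to 12.1 and 16.9 and HES1 from 39.8 and 38.5 to 157 and 157, and the ligands JAG2 and DLL1 fell. In the Hedgehog pathway 7 of 11 measured genes rose and 0 fell. These included the co-receptors GAS1 (0.673 and 0.797 to 39.8 and 37) and BOC, the ligand IHH, the transcription factors GLI1 (0.425 and 0.279 to 2.55 and 1.44) and GLI2 (0.496 and 1.16 to 10.04 and 8.27), and the receptor PTCH1 (3.72 and 3.39 to 64.6 and 67.2), which is also a target of the pathway. Of these the call of IHH, at 0.0354 and 0 against 0.293 and 0.525 CPM, was lost without any 1 library other than sgKMT2D-Mes replicate 1 (adjusted p between 0.055 and 0.11). SMO, HHIP and CDON were among those that did not pass. Of the YAP and TEAD targets 8 of 18 rose and 6 fell, so that ANKRD1 rose from 3.51 and 3.86 to 69.8 and 64.8 CPM while F3 fell from 576 and 518 to 101 and 99.

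**Figure D2:**
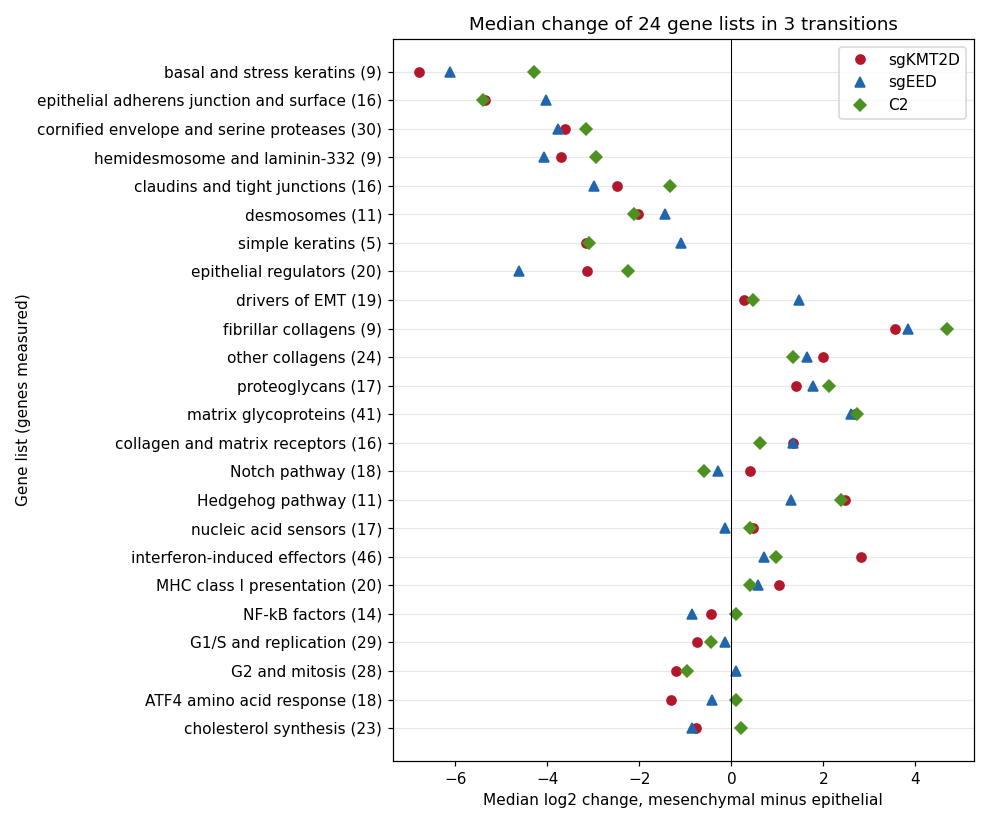
Median log2 change from the epithelial to the mesenchymal state over the measured members of 24 gene lists, in the sgKMT2D, sgEED and C2 cells. Junction and keratin lists lie to the left of 0 and matrix lists to the right in all 3 transitions, while interferon-induced effectors lie further right in sgKMT2D than in the other cells (2.81, beside 0.71 in sgEED and 0.98 in C2) and mitotic genes lie at -1.20, 0.10 and -0.97.

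Genes induced by interferon rose broadly. Interferons are released on sensing of foreign or misplaced nucleic acid and act through JAK kinases and a complex that holds STAT2 and IRF9, which binds a sequence element in front of antiviral genes. Of 17 measured sensors 9 rose and 2 fell. RIGI rose from 14 and 13.9 to 43.5 and 44.5 CPM, STING1 from 6.10 and 7.37 to 53.2 and 49.1, TLR3 from 2.80 and 2.35 to 15.6 and 15.3 and DHX58 from 0.673 and 0.598 to 8.99 and 9.19. CGAS fell from 20.1 and 16.8 to 8.07 and 8.10. Among ligands, IFNE was at 3.69 and 3.86 against 8.37 and 8.71 CPM and did not pass, and 7 of the 14 listed ligands and receptors passed the filter on low counts. Of the transducers STAT2 rose from 33.2 and 36.8 to 168 and 171 and IRF9 from 0.638 and 1.08 to 3.05 and 3.37. The brakes USP18 (2.23 and 2.51 to 6.19 and 6.13) and SOCS1 (0.0354 and 0.0398 to 0.586 and 0.481) rose too.

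Of 46 measured effectors 39 rose, 32 of them past 2-fold, 2 fell and 5 did not pass, where 26.8% of all tested genes rose. IFI6, a mitochondrial survival factor, stood at 1.03 and 0.677 CPM in sgKMT2D-Epi and 85.6 and 70.9 in sgKMT2D-Mes (SE of the log2 change 0.39, adjusted p = 1.3e-08). IFI44L stood at 2.98 and 2.39 against 228 and 246 (adjusted p = 8.6e-10), OAS2, which makes the activator of RNase L, at 0.284 and 0.159 against 36.4 and 30.6, and IFIT1, a binder of foreign RNA caps, at 1.03 and 0.996 against 40.5 and 43.6. These 4 genes were named as called members with large changes, so the gap between the libraries of their states follows from that choice. BST2, a tether of budding viruses, was at 0 in both epithelial libraries and at 3.14 and 2.93 in the mesenchymal ones. PARP12 and LAMP3 fell, and TRIM5, IFIT5, HERC5, ISG20 and CMPK2 did not pass. The members rose more than in the other transitions: the difference from the sgEED transition passed in the positive direction for 32 of the 46 and from the C2 transition for 26, where 10.9% and 12.3% of all genes did so, and in the negative direction for 0 and 2 (9.24% and 11.8% of all genes). For IFI6 the difference was 5.18 (SE 0.49, adjusted p = 8.5e-06) against sgEED and 4.04 (SE 0.53, adjusted p = 9.6e-05) against C2. No measured effector lies on chromosome 16 or 20.

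**Figure D3:**
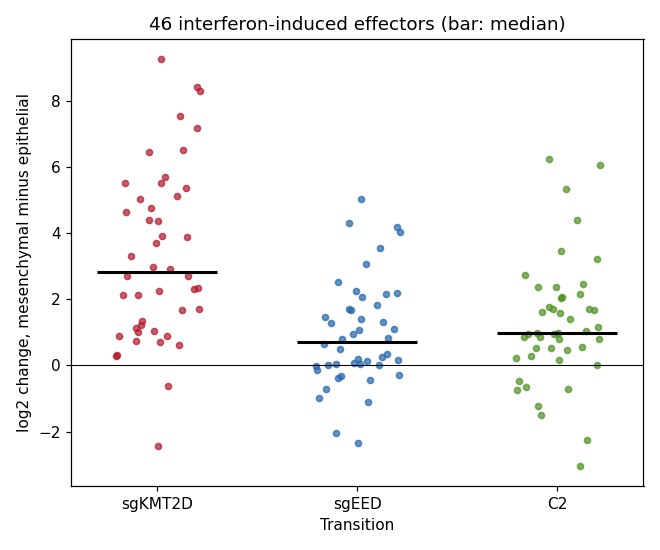
Log2 change of the 46 measured interferon-induced effectors (points) in the sgKMT2D, sgEED and C2 transitions, with the median of each as a bar. The medians are 2.81, 0.71 and 0.98, and most points of the sgKMT2D transition lie above 0.

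Most promoters of these genes carried the element that the complex of STAT2 and IRF9 is known to bind, searched here as GAAANNGAA on both strands. Promoters were found for 38 of the 46 members and 29 of them (76.3%) held it, beside 6.68% of the promoters of all 12269 tested genes with one. Among the 32 members that rose and had a promoter it was 75%. It can share an end base with the E-box letters above. The windows show the copy nearest to the start in 5 genes that rose, with the element in capitals.
IFI6 (chr1:27672265-27672297, minus strand): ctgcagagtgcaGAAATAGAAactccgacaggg
IFI27 (chr14:94110629-94110661, plus strand): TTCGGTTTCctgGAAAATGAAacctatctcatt
ISG15 (chr1:1013384-1013416, plus strand): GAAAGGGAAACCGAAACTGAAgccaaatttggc
BST2 (chr19:17405734-17405766, minus strand): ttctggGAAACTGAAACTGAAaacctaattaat
SAMD9 (chr7:93118095-93118127, minus strand): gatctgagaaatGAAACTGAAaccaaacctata
In ISG15 and BST2 overlapping copies stand side by side, and in IFI27 2 copies stand on opposite strands. The promoter of PARP12, which fell, held the element too.

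Antigen presentation by MHC class I rose with them, in 15 of 20 measured genes. NLRC5, the class I transactivator, rose from 2.62 and 2.91 to 14.8 and 14.6 CPM, B2M, the light chain, from 299 and 287 to 661 and 709, and the immunoproteasome subunit PSMB9 from 1.81 and 2.71 to 8.45 and 6.96. TAP2, a peptide pump, fell from 31.2 and 28.4 to 16.5 and 16.7. NF-kB genes went the other way: of 14 factors 7 fell and 2 rose, and 3 fell without sgKMT2D-Mes replicate 2. NFKBIA, an inhibitor of the pathway, stood at 53 and 54.6 against 26.4 and 27.2 CPM, with its call lost without either sgKMT2D-Mes library (adjusted p = 0.064 and 0.055), and BIRC3 at 82.7 and 64.9 against 4.27 and 3.63. In the interleukin-1 family 6 of 8 fell, and the receptor gene IL1R1 rose from 18.5 and 17.5 to 124 and 128. IL18, an epithelial cytokine, fell from 151 and 145 to 23.6 and 22.1. CXCL1 (21.4 and 19.2 against 10.9 and 11.4), CXCL8 (6.98 and 6.53 against 2.72 and 2.49) and IL6 (8.58 and 7.05 against 1.92 and 2.41) were lower. They did not pass (adjusted p = 0.18, 0.14 and 0.057).

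Genes of cell division fell. Of 28 genes of G2 and mitosis 26 fell and 0 rose, with a median of -1.20. MKI67 stood at 1076 and 981 CPM in the epithelial and 425 and 401 in the mesenchymal libraries. The cyclin CCNB1 stood at 211 and 219 against 92.2 and 95.7, and the spindle checkpoint gene BUB1 at 109.7 and 99.4 against 34.8 and 37. These genes also differed between C1 and sgControl, both wild type and neither labelled mesenchymal. Their means there were 891 and 95.7 CPM for MKI67, 229 and 75.0 for CCNB1 and 91.4 and 21.5 for BUB1. A low level was thus not particular to the mesenchymal libraries. TOP2A (459.8 and 428 against 259 and 250.2) and CENPF (148 and 130.0 against 63.8 and 63.9) did not pass. Of 29 genes of G1/S and replication 16 fell and 1, CCND2, rose (129.9 and 127 to 266 and 249). The difference from the sgEED transition passed in the negative direction for 21 of the 28 mitotic genes, beside 9.24% of all tested genes, and from the C2 transition for 2, AURKA and TPX2, beside 11.8%. Of the cyclin-dependent kinase inhibitors CDKN2C rose (13.2 and 11.9 to 46.7 and 48.1) and CDKN2B fell (114 and 107 to 45.3 and 46). Of 15 targets of p53, 14 did not pass. Of the mitotic genes 4 lie on chromosome 20, among them AURKA, TPX2 and MYBL2, and 1 on chromosome 16. The genes of chromosome 20 had a median log2 change of -0.61. Without members on chromosomes 16 and 20, 21 of 23 mitotic genes fell, with a median of -1.19.

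Of 18 genes that the factor ATF4 induces when amino acids are short, 13 fell and 1 rose. SLC7A5, the leucine transporter, fell from 782 and 846 to 29.2 and 26.9 CPM, the cystine transporter SLC7A11 from 140.5 and 115 to 18.5 and 21.6 and the serine synthesis enzyme PSAT1 from 227 and 227 to 56.9 and 57.5. ATF4 itself (353 and 375 against 366 and 352) did not pass. Cholesterol synthesis gave 11 falls and 4 rises among 23, and 0 rises when any 1 of the 4 libraries was left out, with HMGCS1 at 339 and 295 against 96.7 and 94.4. Of 24 measured genes of the hypoxia and glycolysis list 10 fell and 6 rose: NDRG1 fell from 431 and 448 to 73.5 and 69 and HK2 from 103 and 93.6 to 23.9 and 24, while EGLN3 rose from 13.8 and 17.5 to 106 and 101. Chaperones of the endoplasmic reticulum such as HSPA5 and HSP90B1 did not pass, although the secretion factors CREB3L1 (0.284 and 0.478 to 19.2 and 17.6) and SEC24D (48.6 and 48.7 to 174 and 169) rose. Of the NRF2 and glutathione genes AKR1C1 rose from 4.75 and 6.13 to 80.2 and 87.6 and GCLC fell from 138 and 123 to 41.3 and 44. Mitochondrial transcripts were 10.2% and 9.41% of counts in sgKMT2D-Epi and 7.73% and 7.69% in sgKMT2D-Mes, and 3 of 13 fell, or 1 without sgKMT2D-Epi replicate 1 or either sgKMT2D-Mes library.

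In the COMPASS list 3 of 20 measured genes rose and 6 fell, 0 of them past 2-fold, and 0 rose without either sgKMT2D-Epi library or without sgKMT2D-Mes replicate 1 (1 without replicate 2). Without its members on chromosomes 16 and 20, 1 of 16 rose and 5 fell. KMT2C, the closest relative of KMT2D, stood at 113 and 111 against 92.4 and 87.2 CPM and KDM6A, the demethylase of the same complex, at 31 and 30.5 against 28.9 and 29.8, and neither passed. Of the Polycomb genes, which maintain silencing, EZH2 (49 and 42.6 to 33 and 34.3) and EED (38 and 38.3 to 22 and 23.9) fell, calls lost for EZH2 without replicate 1 of either state (adjusted p = 0.092 and 0.062) and for EED with offsets for GC content and length (adjusted p = 0.094), while EZH1 (19.4 and 21 to 45.1 and 47.5) and CBX7 (1.35 and 1.31 to 15.1 and 13.3) rose. Altogether 9 of 23 measured Polycomb genes rose and 5 fell. DNMT3A rose from 10.9 and 9.40 to 29.6 and 28.5 and DNMT3B fell from 11.5 and 10.9 to 4.52 and 3.98.

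Long non-coding RNAs leaned upward: 699 of 2452 tested rose and 337 fell, 28.5% and 13.7%, with a median log2 change of 0.37, beside 0.05 in the sgEED and 0.01 in the C2 transition. For protein-coding genes the shares were 28.1% and 27.5%. Of the clustered protocadherins on chromosome 5, cell-surface proteins whose genes share exons, 11 of 11 measured beta genes rose and 14 of 20 gamma genes rose with 2 falls. PCDHB14 went from 2.30 and 1.43 to 22.4 and 23.9 CPM and PCDHGB7 from 0.992 and 0.797 to 17.7 and 16.4. Counts of gamma genes are uncertain because their constant exons are shared. Of the imprinted genes MEG3 rose from 23.7 and 25.5 to 546 and 577, with H19 at 129 and 123 against 451 and 462, a rise whose call was lost whichever of the 4 libraries was left out (adjusted p between 0.053 and 0.088). Of 30 measured HOX genes in the 4 clusters 12 rose and 6 fell, although of the 5 HOXB genes that rose 2 did so without any 1 of the 4 libraries and of the 4 HOXA genes 2 without sgKMT2D-Epi replicate 2 and 1 without sgKMT2D-Mes replicate 1. HOXC11 went from 0.780 and 0.598 to 0 in both mesenchymal libraries. Other developmental factors rose or fell singly, with NR2F1 at 10.03 and 9.60 against 144 and 141, TBX18 at 29.6 and 27.3 against 135 and 152, HLX at 0.603 and 0.398 against 32.4 and 29.8, and SOX15 at 20.03 and 23.2 against 0.209 and 0.175. Of the introduced genes, TERT stood at 5.39 and 4.70 CPM in sgKMT2D-Epi and 47.9 and 44.3 in sgKMT2D-Mes (log2 3.19, adjusted p = 3.8e-06), and HRAS at 89.4 and 88.2 against 61.9 and 55.7 (log2 -0.59, adjusted p = 0.0094). Gene counts do not separate introduced from endogenous transcripts.

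Of 34 measured genes of axon guidance 14 rose and 12 fell, with a median of 0.11. SEMA5A rose from 4.96 and 3.31 to 609.8 and 601 CPM, EPHB6 from 0.177 and 0.239 to 38.6 and 33.8, NRP1 from 139.6 and 137 to 664 and 673 and SLIT2 from 4.43 and 4.62 to 73.4 and 67.5, while EPHA1 fell from 18.4 and 20.2 to 0.251 and 0.0875. Of 7 measured adipocyte genes 3 rose and 0 fell, and of 6 genes of cartilage and bone 3 rose and 1 fell. FABP4, a fatty acid carrier of adipocytes, rose from 0.0709 and 0.0398 to 8.99 and 11.1 and PPARG, the adipocyte regulator, from 8.51 and 9.72 to 41.4 and 45.9, while ADIPOQ was at 0. ALPL, the phosphatase of bone, rose from 0.213 and 0.120 to 30.3 and 28.3, while the cartilage gene COL2A1 was at 0.213 and 0.478 and then 0. The 5 endothelial markers summed to 2.16 and 2.35 CPM in sgKMT2D-Epi and 4.60 and 4.20 in sgKMT2D-Mes, of which PECAM1 gave 4.31 and 4.03. Of these markers KDR fell from 0.922 and 0.837 to 0.0418 and 0, and TEK from 0.461 and 0.598 to 0 in both mesenchymal libraries. In the longer endothelial list 2 of 7 measured genes rose and 2 fell. The 3 adipocyte markers summed to 0.142 and 0.438 against 9.45 and 12.04. Their part in the results above was not tested.

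Apart from these programmes, genes of 2 chromosomes moved together by position. On chromosome 16 the median log2 change of the 810 genes tested was 0.58, with 45.4% that rose and 13.6% that fell. On chromosome 20 it was -0.61 over 481 genes, with 11% that rose and 48.6% that fell. In the sgEED transition the medians of these chromosomes were -0.10 and -0.07, and in the C2 transition -0.03 and -0.01. The largest median of a chromosome outside sgKMT2D was that of chromosome 13 in the sgEED transition, 0.80.

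Among protein-coding genes with at least 5 CPM in C1 and sgControl, the rise lay in 1 part of chromosome 16. In the first 40 Mb of chromosome 16, which hold its short arm, 218 of 254 such genes (85.8%) were higher in sgKMT2D-Mes and the median was 0.88. Beyond 40 Mb, 109 of 225 (48.4%) were higher and the median was -0.05. Along chromosome 20, 53 of 296 (17.9%) were higher, the median was -0.76, and each bin of 10 Mb had a median between -1.29 and -0.54. Over all chromosomes 44.2% of 10403 such genes were higher. Set against the mean of C1 and sgControl, the short-arm genes of chromosome 16 had a median log2 ratio of -1.24 and -1.14 in the sgKMT2D-Epi libraries and of -0.26 and -0.29 in the sgKMT2D-Mes libraries. Those of chromosome 20 stood at -0.11 and -0.02 in sgKMT2D-Epi and at -0.74 and -0.75 in sgKMT2D-Mes. So the chromosome 16 genes were low in the epithelial libraries and the chromosome 20 genes in the mesenchymal ones. In C2 cells the chromosome 20 ratio was between -0.70 and -0.60 in all 4 libraries, epithelial and mesenchymal.

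**Figure D4:**
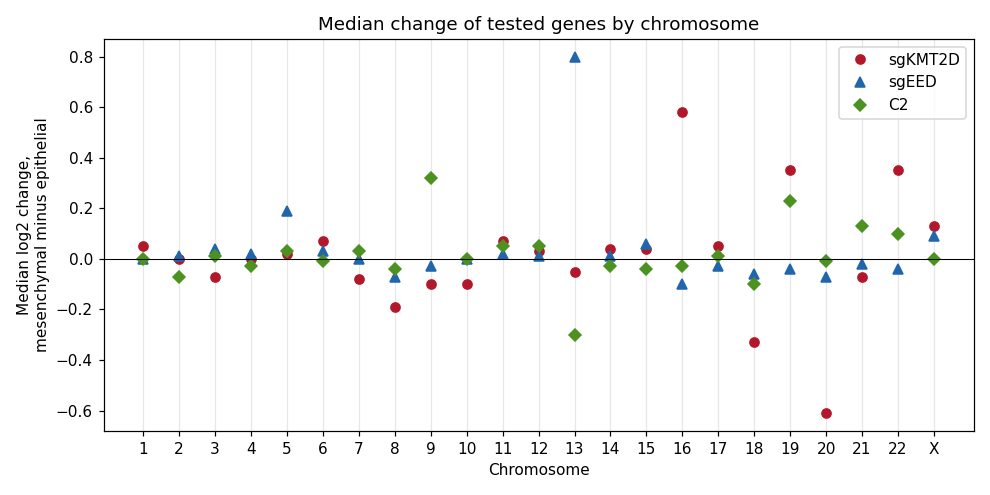
Median log2 change from the epithelial to the mesenchymal state for the tested genes of each chromosome, in the sgKMT2D, sgEED and C2 cells. Chromosome 16 (0.58) and chromosome 20 (-0.61) stand apart in sgKMT2D, and chromosome 13 (0.80) in sgEED.

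**Figure D5:**
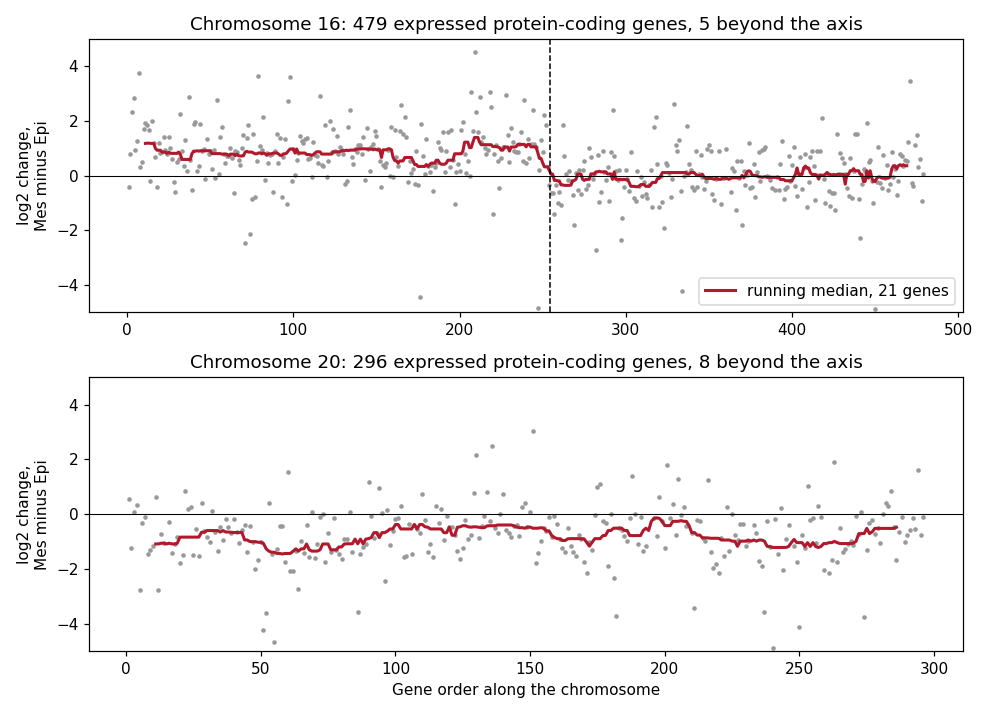
Log2 change of each expressed protein-coding gene (at least 5 CPM in C1 and sgControl) in the sgKMT2D transition, in gene order along chromosomes 16 and 20, with a running median over 21 genes; the dashed line marks the last gene within the first 40 Mb of chromosome 16. The running median lies above 0 up to about that line and near 0 after it, and below 0 along chromosome 20.

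With offsets for GC content and gene length the medians were 0.68 for the first 40 Mb of chromosome 16 and -0.82 for chromosome 20. Chromosomes 19 and 22, rich in genes and in GC, had medians of 0.23 and 0.30 among these genes and of 0.04 and 0.09 with the offsets. Chromosomes 8 and 18 had medians of -0.41 each and -0.38 each with the offsets. The part of gene copy number in these values was not tested. Genes of these chromosomes stand on several lists above: SOCS1, PPL and CORO1A in the first 40 Mb of chromosome 16, CDH1, CDH3, ESRP2, FOXC2, MMP2, NLRC5 and SLC7A5 beyond them, and AURKA, MYBL2, TPX2, PARD6B, SNAI1, OVOL2, TFAP2C, TGM2, BMP2 and DNMT3B on chromosome 20. Without these chromosomes 4482 of 16994 genes rose and 4047 fell, and 1890 rose and 1278 fell past 2-fold.

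Set beside the same step in the other cells, the sgKMT2D transition shared genes with them. The transitions share no library. Of the 2064 genes that rose past 2-fold, 727 did so in sgEED (35.2% of the sgKMT2D genes and 55.3% of the sgEED genes) and 787 in C2 (38.1% and 52%). Of the 1416 that fell past 2-fold, 623 were shared with sgEED (44% and 59.4%) and 642 with C2 (45.3% and 47.9%). In all 3 transitions 399 genes rose and 432 fell past 2-fold. A further 333 rose and 108 fell past 2-fold in sgKMT2D with no call in either other transition, which is no test of a difference. By the test of the difference itself 1985 genes were higher and 1689 lower than in the sgEED transition, and 2247 higher and 2163 lower than in the C2 transition. Leaving out 1 library lowered the first count to 1242 (sgKMT2D-Epi replicate 1) or 1307 (sgKMT2D-Mes replicate 1) and the second to 1051 or 1118 for the same libraries or 1102 (sgKMT2D-Mes replicate 2). Without sgKMT2D-Mes replicate 2, 1425 were lower than in C2, and without C2-Mes replicate 2, whose group had the lowest replicate correlation (0.967), 3485 were higher and 3264 lower.

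Single genes showed how far the end points lay apart. DAPK1, a death-associated kinase, rose from 1.21 and 1.67 to 70.2 and 70.6 where the means of sgEED-Epi and sgEED-Mes fell (2.46 and 0.0544) and those of C2-Epi and C2-Mes rose less (4.37 and 19.1). The difference was 10.87 against sgEED and 3.48 against C2 on the log2 scale (adjusted p = 1.8e-08 and 5.9e-06). IGFBP2 rose from 2.52 and 2.15 to 1643 and 1534, with 21 and 165 in sgEED and 1.73 and 702 in C2, a difference from sgEED of 6.43 (SE 0.56, adjusted p = 4.8e-06). PRKD1, a protein kinase of the PKD family, went from 0.248 and 0.359 to 14.1 and 15.4 and was at 11.5 and 11.3 in sgEED and 0.834 and 0.0452 in C2.

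Some matrix genes rose less than in sgEED or in C2 cells, or fell. EDIL3, a ligand of integrins, fell from 29.6 and 24.8 to 1.92 and 1.49 CPM in sgKMT2D and had means of 9.50 and 245 in sgEED and 0.0181 and 9.56 in C2, a difference of -8.68 and -12.61 (SE 0.72 and 1.11, adjusted p = 3.4e-06 and 3.6e-06). POSTN had means of 0.0762 and 473 in sgEED, and the difference was -13.01 (SE 0.75, adjusted p = 1.6e-07). The collagen receptor ITGA11 reached 2.34 and 1.79 in sgKMT2D-Mes, and its means were 0.129 and 561 in sgEED (difference -9.19, adjusted p = 2.9e-05). COL14A1 stood at 0.0354 and 0.239 against 0.335 and 0.438 in sgKMT2D and at means of 0.0192 and 113 in C2 (difference -10.71, SE 1.96, adjusted p = 0.0014). Its C2-Epi level was near 0 and its C2-Mes libraries lay far apart (SD 77.9). With sgEED means of 0.546 and 1.82, its difference from sgEED did not pass (-0.21, SE 1.36, adjusted p = 0.95). CNTNAP2, a neuronal adhesion gene, fell from 174 and 152 to 0.795 and 0.657 in sgKMT2D and less in sgEED (143 and 43.8, difference -6.09, adjusted p = 1.9e-08).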

How the data were processed

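RNA-seq of 16 libraries in 8 groups of 2 was used. Per the submitters' processing notes, the authors used STAR 2.7.1a, featureCounts and the GRCh38 build. The deposited tables hold raw counts of reads per Ensembl gene, and the counting strand is not given in the sources used here, so antisense and overlapping genes are uncertain. From these counts, R 4.3.3 with edgeR 4.0.16 (quasi-likelihood fit with robust estimates, all 16 libraries, filterByExpr, TMM scaling, 8 residual degrees of freedom) gave log2 changes, with Benjamini-Hochberg adjustment and a threshold of 0.05. A change past 2-fold was tested with glmTreat, and differences between transitions were contrasts of the same fit. CPM used TMM-scaled totals, and genes at 0 were bounded with a floor of 3 counts per library, which covers counting error only. Symbols were current gene names, or those of GENCODE 29 where no current name was found. Gene positions and types came from GENCODE 29, with an entry for 94.1% of the 60448 genes. Promoters and microRNAs came from RefSeq (GRCh38.p14). The fit was tested on simulated data. Alternatives were RLE factors, no filter, DESeq2 1.42.0, fewer libraries, a replicate block, GC and length offsets, and leaving out each library. Named genes followed a rule on the size of the change, the change in CPM, called members of 72 gene lists, differences between transitions and a fixed set of genes, and genes outside it were chosen after their values were seen. Members and lists were chosen with earlier results of these data known. Results of some genes are not reported here.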

Additional observations from a re-analysis of the deposited data

Results flagged for a closer look

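Among the 252 genes named above, the sgKMT2D change was higher than the sgEED change for 79 and lower for 61, and higher than the C2 change for 67 and lower for 70, by the edgeR quasi-likelihood test of the difference itself (adjusted p under 0.05). Over all tested genes the shares were 10.9% and 9.24% for the sgEED and 12.3% and 11.8% for the C2 transition. Some of the named genes were chosen for such a difference, so their counts are a description. The largest positive differences from the sgEED transition among those of these genes with at least 5 CPM in their highest group, no group mean at 0 and an SE under 1 were those of DAPK1 (10.87 on the log2 scale), LAMA4 (9.78), ITGA4 (9.03), NID1 (7.85) and GAS1 (7.20). The largest negative ones were those of POSTN (-13.01), ITGA11 (-9.19), EDIL3 (-8.68), CNTNAP2 (-6.09) and SNAI1 (-5.34). From the C2 transition they were those of PRKD1 (9.77), ITGA4 (6.47), EGLN3 (6.10), EPHB6 (6.09) and LAMA2 (5.84) in the positive direction, and HHIP (-7.41), POSTN (-6.82), VCAN (-6.21), BMP2 (-5.21) and TBX18 (-5.08) in the negative one. Several of these differences rest on a group with few counts, such as sgKMT2D-Epi for LAMA4 and ITGA4, sgKMT2D-Mes for SNAI1 and C2-Mes for PRKD1. No floor was applied to them, so their size and rank are uncertain. Groups of 2 libraries allowed no search for a library apart from its group.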

How the results depend on the processing

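Under RLE factors, no filter on low counts, DESeq2, a fit on the compared groups, the replicate block, offsets for GC content and length, and each library left out, the counts of genes that rose or fell in the sgKMT2D transition stayed within 1.5 times their values. With 1 library left out at a time, 3492 to 3777 genes rose and 3580 to 3988 fell, and 1492 to 1647 rose and 1173 to 1347 fell past 2-fold. DESeq2 called 1441 rises and 1002 falls past 2-fold. A fit on the sgKMT2D libraries alone called 6001 rises and 5921 falls. The main fit shares its estimate of the spread with the other groups. The SD of the log2 difference between replicates was 0.36 in sgKMT2D-Mes, 0.37 in sgKMT2D-Epi and 0.89 in C2-Mes. Genes that vary in other groups may thus not pass although their sgKMT2D replicates lie close. The differences moved further. With 1 library left out, 1242 to 2177 genes were higher and 1051 to 1941 lower than in the sgEED transition, and 1645 to 3485 higher and 1425 to 3264 lower than in the C2 transition. Without the 2 C2-Mes libraries 2757 were lower than in the sgEED transition. The cause was not tested. With a replicate block 4825 genes rose and 4372 fell, and of the named genes the block ended the call of MT-ND2 (adjusted p = 0.054) and added calls for LOX, TOP2A, CENPF, PLEC, TGFBR1 and ISG20. Replicate numbers share no stated source, and the correlation of the replicate differences of the 2 states was -0.038, so the numbers were not taken as pairs. Groups of 2 libraries limit the precision of every estimate, and the lone library of a group is assumed to vary like the others.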
